A study of Mus musculus with 12 samples.

Results

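The genes described here are 10 transcriptional targets of p53 in mouse CD4+ T cells, namely Cdkn1a, Ptprv, Zmat3, Ccng1, Mdm2, Phlda3, Pmaip1, Bbc3, Bax and Eda2r. They were taken from a fixed list of names and made up 10 of the 55414 gene records of the count table. They were put on that list with their levels in these same libraries already known, so their own values are given as a description with no p-value, and where their number past a threshold is given, beside the share of all genes, nothing is read from it. The study asked how ligature-induced periodontitis, in which a silk thread is tied around an upper molar, changes T cells of the spleen. All mice were male wild-type BALB/c of 18 weeks, either ligated (LIP) or healthy and not ligated (CTL). CD4+ T cells were enriched from spleen by negative selection and taken either directly, on day 0, or on day 2, after culture with IL-2 and antibodies to TCRβ and CD28, at doses for which the labels and the methods differ. Each of the 4 groups had 3 libraries of total RNA, named here by the number in their label, and whether each library came from 1 mouse was not stated, so the spread between libraries may in part be technical. The treatment labels of day 2 did not all name the same second antibody, giving anti-CD28 for CTL 92 and LIP 90, anti-CD29 for CTL 93 with LIP 96, and anti-CD30 for the libraries numbered 97. The methods name anti-CD28 alone, so these labels may not reflect a real difference in treatment.

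p53, encoded by Trp53, is a transcription factor that is held at a low level by the ubiquitin ligase Mdm2 and is released when DNA is damaged or when cells are under other stress. It then switches on genes that stop the cell cycle, repair DNA, remove the cell by apoptosis or, in the case of Mdm2 itself, end the response. In T cells, p53 is known to restrain expansion after stimulation through the T cell receptor, and sustained expression of its target Cdkn1a is a common feature of senescent cells.

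p53 binds a 20-base element made of 2 repeats of 10 bases, each with 3 purines, a C, 2 A or T bases, a G and 3 pyrimidines. A search was made of both strands within 5000 bases of the start of each gene's canonical transcript. It allowed no spacer and up to 2 mismatches, with the C and the G of each repeat required to match. Such letters were found for 7 of the 10 genes. The same search found them for 25.5% of 51 other known targets and for 9.85% of 21627 protein-coding genes. The window was widened from 2500 bases after the elements of Cdkn1a and Ptprv were seen to lie outside it, and with the narrower window 5 of the 10 genes and 4.87% of all genes had a match. The matches, shown because the genes are grouped by this factor, are written 5′ to 3′ on the strand of the gene, with the 20-base element in capitals and 5 bases on each side.
Zmat3, no mismatch: gtgagAAACAAGCCCAGGCATGTCTtggga
Cdkn1a, 1 mismatch: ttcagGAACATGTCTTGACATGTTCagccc
Ccng1, 1 mismatch, before the gene: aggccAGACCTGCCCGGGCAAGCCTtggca
Ccng1, 1 mismatch, inside the gene: ccggaACGCAAGCCCGGGCTAGTCTgcgcc
Bax, 2 mismatches: cccccGGGCAGGCCCGGGCTTGTCGctggc
Eda2r, 2 mismatches: tgcctGGGCAAGTCCGGGCCTGTGTaaaaa
Ptprv, 2 mismatches: catccCTGCAAGCCTAGGCTTGTCCttggt
Mdm2, 3 mismatches: gggctGGTCAAGTTGGGACACGTCCggcgt

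In the GRCm39 assembly the Zmat3 run lay at chr3:32418475-32418504 on the minus strand, 1418 bases after the canonical start, in an exon of another transcript of the gene. The Cdkn1a run was at chr17:29309897-29309926 on the plus strand, 2826 bases before the canonical start and 15 bases outside the annotated gene. Both Ccng1 runs were on the minus strand, the first at chr11:40646284-40646313, outside the gene and 160 bases before its start, the other at chr11:40645758-40645787 in an intron, 366 bases after it. The Bax run at chr7:45115993-45116022 and the Eda2r run at chrX:96420135-96420164, both on the minus strand, overlapped exons of transcripts other than the canonical one. The Ptprv run at chr1:135057669-135057698, on the minus strand, was intronic. Only Zmat3 matched every position, as did 0.194% of all protein-coding genes. A second Zmat3 match, with 1 mismatch and not printed, lay 4402 bases before the start, outside the gene. The Mdm2 run, at chr10:117546005-117546034 on the minus strand in an exon of another transcript, had 3 mismatches, a level at which 39.4% of all genes had a match. Bbc3 also had a match with 3 mismatches, at chr7:16043411-16043430 on the plus strand in an exon of its canonical transcript. Pmaip1 had a match with 2 mismatches, 94 bases before its start, which is not printed. A match is a stretch of letters and no measure of p53 binding, and no match was found for Phlda3 in this window.

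Expected counts summed to between 6249018 and 12866718 per library, and levels are given in CPM, which are counts scaled to a common library total, with TMM scaling over the 12 libraries. A count of 3 was worth between 0.269 and 0.442 CPM. The T cell genes Cd3d, Cd3e, Cd3g, Cd4 and Trac summed to between 1440 and 2000 CPM in each library. Cd8a and Cd8b1 summed to 4.45 to 6.36 CPM in the CTL libraries of day 2 and to 4.93, 13.3 and 9.57 CPM in LIP 90, 96 and 97. On the first principal component of day 2, which held 48.3% of the variance, LIP 90 lay at -8.33, nearer to the CTL libraries (-34.5 to -18.2) than to LIP 96 at 44.6 and LIP 97 at 39.2. On day 0, where this component held 39.1%, CTL 94 lay at -13.5, within the range of the LIP libraries (-18.9 to -7.63). CTL 89 lay farthest from the LIP libraries, at 37.4. Results that rest on LIP 90 or CTL 94 are therefore given with and without them, and some also without CTL 89. The 5 markers of B cells Cd79a, Cd79b, Ms4a1, Ighm and Pax5 summed to 21, 22.7 and 57 CPM in CTL 92, 93 and 97 of day 2 and to 21.6, 61.2 and 64.7 CPM in LIP 90, 96 and 97.

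Stimulated cells of both groups held more RNA of the p53 targets than fresh cells did. Cdkn1a and Phlda3 went from almost nothing on day 0 to clear expression on day 2 in both groups. Eda2r did so in CTL, while LIP 96 and LIP 97 of day 2 had only 5 and 4 counts of it. The other targets rose from a level they already had, except for Ptprv in LIP. In LIP the days overlapped for Ptprv and for Bbc3, although the mean of Bbc3 was 1.85-fold higher on day 2. Cdkn1a encodes p21, the inhibitor of cyclin-dependent kinases through which p53 arrests the cell cycle. On day 0 it had 2 to 5 counts per library. In CTL cells of day 2 its level was 264, 305 and 216 CPM, a mean of 262 ± 44.4 (SD, n = 3) against 0.442 ± 0.207 on day 0. In LIP cells of day 2 it was 212, 134 and 133 CPM, a mean of 160 ± 45.4 against 0.5 ± 0.169. All LIP libraries of day 2 were below all CTL libraries, LIP 90 by little. The rise was 9.15 on the log2 scale (SE 0.33) in CTL and 8.25 (SE 0.33) in LIP, both resting on 10 and 11 counts in all on day 0. The CTL value was 9.57 without CTL 94 and 8.82 without CTL 89.

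**Figure D1:**
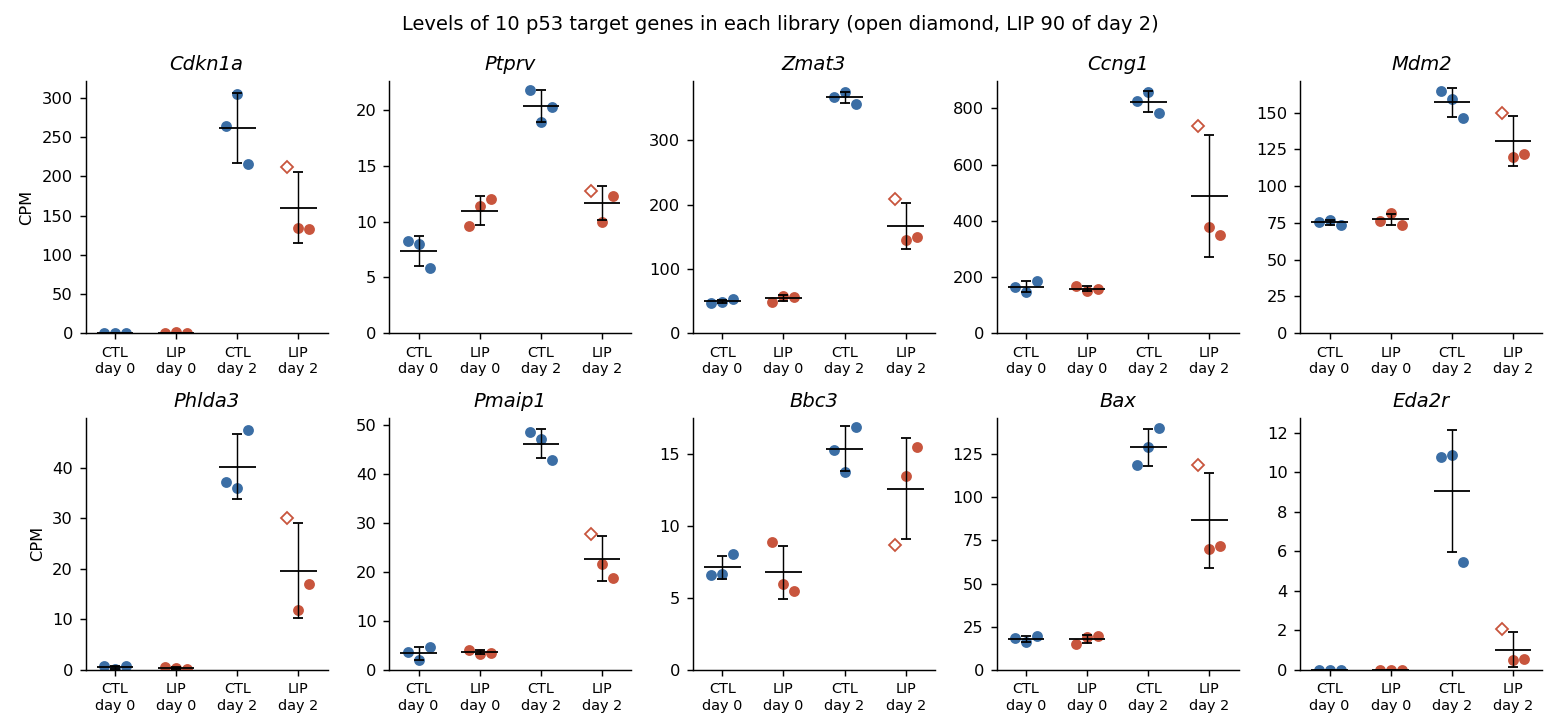
Level of each of the 10 p53 targets in CPM (vertical axis from 0) in the 12 libraries, by group and day; points are libraries, lines the mean and bars ± SD, with LIP 90 of day 2 as an open diamond. Stimulated CTL libraries sit highest for nearly all genes, and LIP 90 lies between them and the other LIP libraries for most, but is lowest for Bbc3.

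Ptprv, a receptor-like tyrosine phosphatase that takes part in p53-dependent arrest in the mouse, differed little between fresh and stimulated LIP cells. It went from 8.25, 7.99 and 5.84 CPM on day 0 to 21.8, 19 and 20.3 CPM on day 2 in CTL. In LIP it stood at 9.58, 11.4 and 12 CPM on day 0 and at 12.8, 9.94 and 12.3 CPM on day 2. The CTL days were well apart, while the LIP days overlapped. The log2 fold change of day 2 over day 0 was 1.43 in CTL and 0.05 in LIP (SE 0.17 and 0.17). Under upper-quartile scaling, under which the median of all genes was -0.32 in the LIP comparison and -0.307 in the CTL one, the LIP value became -0.28, and it was -0.041 without LIP 90 of day 2.

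Zmat3, an RNA-binding zinc finger protein that acts in tumour suppression downstream of p53, rose from 49.4 ± 2.78 to 367 ± 8.99 CPM in CTL (SD, n = 3), which is 7.42-fold. In LIP it rose from 53.9 ± 4.77 to 167 ± 35.6 CPM, which is 3.1-fold. The libraries of day 2 were 368, 375 and 357 CPM in CTL and 208, 145 and 149 CPM in LIP. The CTL libraries were close to each other and far above every LIP library.

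The genes that feed back on p53 or on survival signals differed in how far they moved. Ccng1 encodes cyclin G1, which brings a phosphatase to Mdm2, and it was the most abundant of the 10. It reached 827, 860 and 785 CPM in CTL and 739, 377 and 348 CPM in LIP on day 2, from 146 to 185 CPM on day 0 in all 6 libraries. LIP 90 was near the CTL libraries and the other LIP libraries were far lower. Mdm2 moved least, from 75.3 ± 1.9 to 157 ± 9.81 CPM in CTL and from 77.3 ± 3.88 to 131 ± 17 CPM in LIP, with 165, 159 and 146 CPM against 150, 120 and 122 CPM on day 2. Here LIP 90 fell among the CTL libraries. Phlda3, a small protein that blocks the kinase Akt by competing for membrane lipids, had 1 to 5 counts per library on day 0. On day 2 it was at 37.2, 35.9 and 47.5 CPM in CTL and at 30, 11.8 and 17 CPM in LIP, and the groups did not overlap.

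Of the 3 genes that drive apoptosis through mitochondria, 2 rose strongly. Pmaip1 encodes Noxa and Bbc3 encodes Puma, BH3-only proteins that disarm the Bcl-2 family's protectors, and Bax forms the pore in the outer membrane. Pmaip1 rose from 3.36 ± 1.28 to 46.2 ± 2.96 CPM in CTL and from 3.57 ± 0.434 to 22.7 ± 4.57 CPM in LIP. Its libraries of day 2 were 48.5, 47.2 and 42.8 CPM against 27.7, 21.6 and 18.7 CPM, so all LIP libraries were low. Bax rose from 18 ± 1.67 to 129 ± 10.7 CPM in CTL and from 17.9 ± 2.29 to 86.8 ± 27.6 CPM in LIP. LIP 90 was at 91.7% of the CTL mean for Bax, next to CTL 92 at 92%, and LIP 96 and 97 were at 54.1% and 55.5%. Bbc3 behaved differently, with 6.63, 6.69 and 8.05 CPM in CTL and 8.91, 5.98 and 5.48 CPM in LIP on day 0, and 15.3, 13.8 and 16.9 CPM in CTL and 8.69, 13.5 and 15.5 CPM in LIP on day 2. Its lowest library of day 2 was LIP 90, which was below LIP 92 of day 0, and LIP 97 was among the CTL libraries.

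Eda2r, a receptor of the tumour necrosis factor family that binds ectodysplasin A2, had 0 counts in all 6 libraries of day 0. On day 2 it had 101, 91 and 48 counts in CTL, or 10.8, 10.9 and 5.48 CPM, and 23, 5 and 4 counts in LIP, or 2.06, 0.473 and 0.539 CPM. Against a floor of 3 counts in each library of day 0, its mean was at least 23-fold higher in CTL and at least 2.51-fold higher in LIP. The LIP libraries were all below the CTL libraries, with as few as 4 and 5 counts behind them.

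In CTL cells, 10 of the 10 genes were past an adjusted p of 0.05 in the edgeR quasi-likelihood test for a rise, where 35.3% of the 15475 genes tested were. In LIP cells 9 of 10 were, where 36.6% of all genes were. Ptprv was the gene that was not. The median log2 fold change over the 10 genes was 2.83 in CTL and 1.92 in LIP, against medians of -0.0221 and -0.00281 over all genes tested. With Eda2r at its bound the medians were 2.83 and 1.60. Because the genes were chosen on these libraries, nothing is read from these counts, and Cdkn1a, Phlda3 and Eda2r were tested only through their values of day 2. Without LIP 90, the median in LIP was 1.67.

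**Figure D2:**
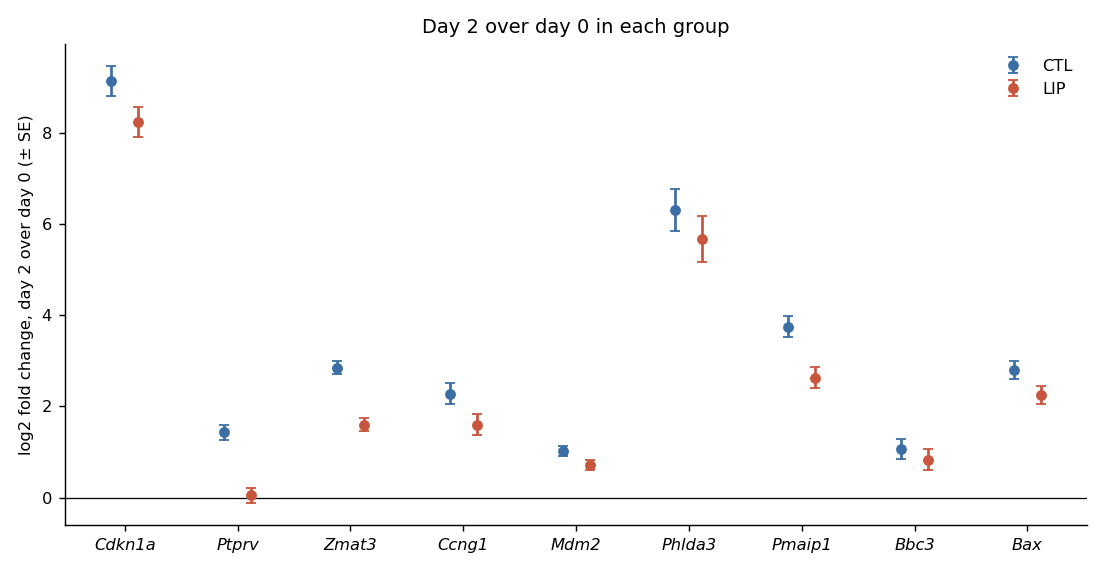
Log2 fold change of day 2 over day 0 (points, ± SE) of 9 p53 targets in CTL and in LIP, from one edgeR fit of 12 libraries. Cdkn1a reached 9.15 and 8.25, Ptprv 1.43 and 0.05; Eda2r is left out because it had no counts on day 0.

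Compared per kilobase of canonical transcript, the order of the genes in stimulated CTL cells ran from Ccng1 at 235 ± 10.7 CPM per kb (SD, n = 3) to Eda2r at 1.9 ± 0.649. Cdkn1a at 136 ± 23.1 and Bax at 133 ± 11 came next to Ccng1, and their libraries overlapped. Mdm2 at 50.5 ± 3.16 and Zmat3 at 46.6 ± 1.14 overlapped with each other, as did Phlda3 at 17.5 ± 2.77 and Pmaip1 at 16.9 ± 1.08. Bbc3 at 5.72 ± 0.577 and Ptprv at 3.34 ± 0.236 did not overlap with their neighbours. In stimulated LIP cells the same scale gave 139 ± 62.1 for Ccng1, 89 ± 28.3 for Bax, 83 ± 23.6 for Cdkn1a and 42.2 ± 5.48 for Mdm2. Zmat3, at 21.2 ± 4.52 CPM per kb, was there well below Mdm2, and Eda2r was at 0.215 ± 0.188.

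On day 0, the libraries of LIP and CTL overlapped for all of these genes that could be fitted, apart from Ptprv. Of the 10, 7 had enough counts to be fitted, and their log2 fold changes of LIP over CTL lay between -0.08 and 0.57, with a median of 0.03 against 0.01 over 14064 genes. Cdkn1a and Phlda3 had between 1 and 5 counts per library and Eda2r had none, so no difference was detectable for them at this depth. Ptprv, the 1 gene apart, was at 11 ± 1.27 CPM in LIP and 7.36 ± 1.32 CPM in CTL (SD, n = 3), a log2 fold change of 0.57 (SE 0.19), where 10% of all genes were apart in the same direction. Without CTL 94, its value was 0.42. On day 0, markers of pancreatic acinar cells summed to 0.675, 12.9 and 5.48 CPM in LIP 92, 93 and 94 and to 0.117 to 0.39 CPM in CTL, those of natural killer cells to 10.8 to 14.8 CPM in LIP and 5.17 to 12.3 CPM in CTL, and those of B cells to 95.5 to 125 CPM over both groups. Their part in the values of day 0 was not tested. Of the other 6 fitted genes, all but Zmat3 changed sign when some 1 library was left out, and the median was -0.094 without CTL 89.

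On day 2, all 10 genes were lower in LIP than in CTL by their log2 fold change, as were 50.8% of all genes, and for 8 of them all 3 LIP libraries lay below all 3 CTL libraries. Of the 14041 genes tested, 10.1% did not overlap in this direction, and since the 10 were chosen on these libraries the count is a description. Eda2r differed most, with a log2 fold change of -3.09 (SE 0.52), which is 8.52-fold lower. It was followed by Zmat3 at -1.16 (SE 0.16), Pmaip1 at -1.05 (SE 0.16) and Phlda3 at -1.05 (SE 0.30). Ptprv was at -0.83 (SE 0.16), Ccng1 at -0.78 (SE 0.27), Cdkn1a at -0.74 (SE 0.21) and Bax at -0.60 (SE 0.21). Mdm2 at -0.28 (SE 0.13) and Bbc3 at -0.32 (SE 0.22) were the genes whose groups overlapped. These differences share the CTL libraries of day 2 with the rise described above, so that a high value in those libraries enters both. The median was -0.80 over the 10 genes and -0.01 over all genes.

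No gene of day 2, among the 10 or elsewhere, passed an adjusted p of 0.05 in the edgeR test, where 2322 genes had an unadjusted p under 0.05 and DESeq2 called 485. Of the 10, 8 had an unadjusted p under 0.05 and were lower, against 8.2% of all genes, and DESeq2 called 6, against 1.42%. Without LIP 90, edgeR called 2014 genes, 6.19% of the 14453 tested being lower, and 9 of the 10 genes were among these. Bbc3 was the one that was not, its log2 fold change going from -0.32 to -0.10, while Eda2r went from -3.09 to -4.15 and Phlda3 from -1.05 to -1.51. The median without LIP 90 was -1.09. LIP 96 and LIP 97 together lay below every CTL library for 9 of the 10, as for 22.5% of all genes. As above, nothing is read from the counts among the 10.

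**Figure D3:**
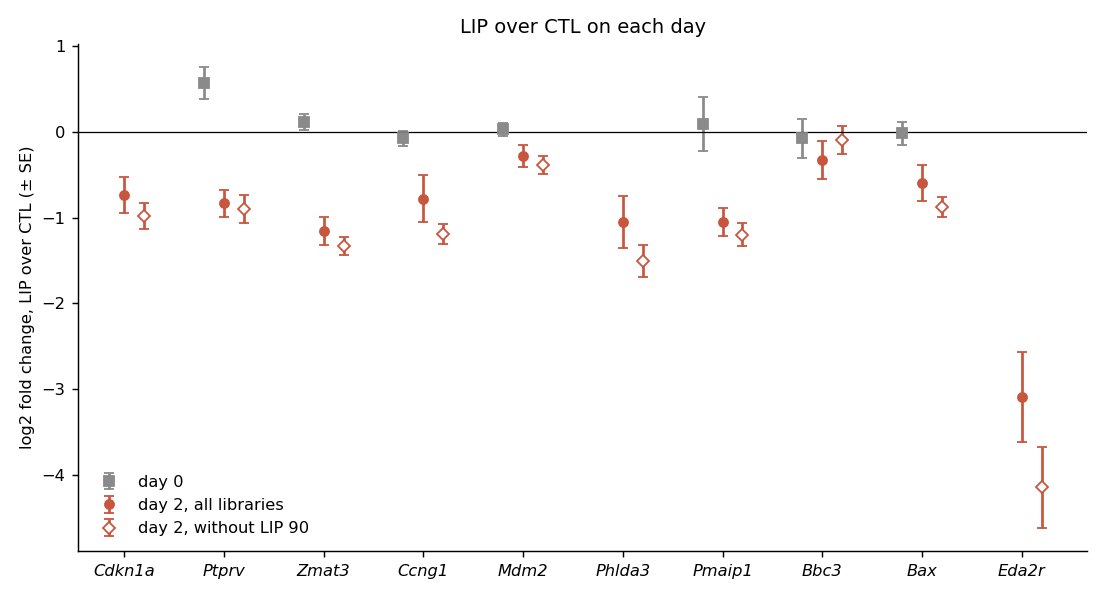
Log2 fold change of LIP over CTL (points, ± SE) of the p53 targets on day 0, on day 2 and on day 2 without LIP 90. Values of day 0 stay near 0 apart from Ptprv at 0.57, whereas every value of day 2 is negative, down to -3.09 for Eda2r.

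The LIP libraries did not differ from CTL to the same degree. Expressed as a percentage of the CTL mean, the median over the 10 genes was 68.7% in LIP 90, 47.7% in LIP 96 and 46.5% in LIP 97, and between 96.3% and 101.5% in the CTL libraries. LIP 90 ranged from 22.7% for Eda2r to 96% for Mdm2. LIP 96 ranged from 5.22% for Eda2r to 88.1% for Bbc3, and LIP 97 from 5.95% to 101% for the same genes. Phlda3, at 29.4%, was the next lowest gene in LIP 96, and Zmat3, at 40.5%, in LIP 97. CTL 97, which like LIP 96 and LIP 97 was high in B cell markers, stood at a median of 96.3%, with Eda2r at 60.5% as its lowest gene. LIP 90, which was low in those markers, was at 56.8% for Zmat3 and 59.9% for Pmaip1, but at 89.7% for Ccng1, 91.7% for Bax and 96% for Mdm2. Markers of natural killer cells summed to 0.961 to 1.48 CPM in CTL and to 1.34, 3.5 and 2.56 CPM in LIP 90, 96 and 97, so that they and the CD8 markers were highest in the libraries in which the genes other than Bbc3 were lowest. Myeloid markers summed to at most 5.2 CPM on day 2. The part of other cell types in these differences was not tested. In these bulk libraries, fewer expressing cells and less RNA per cell cannot be told apart.

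**Figure D4:**
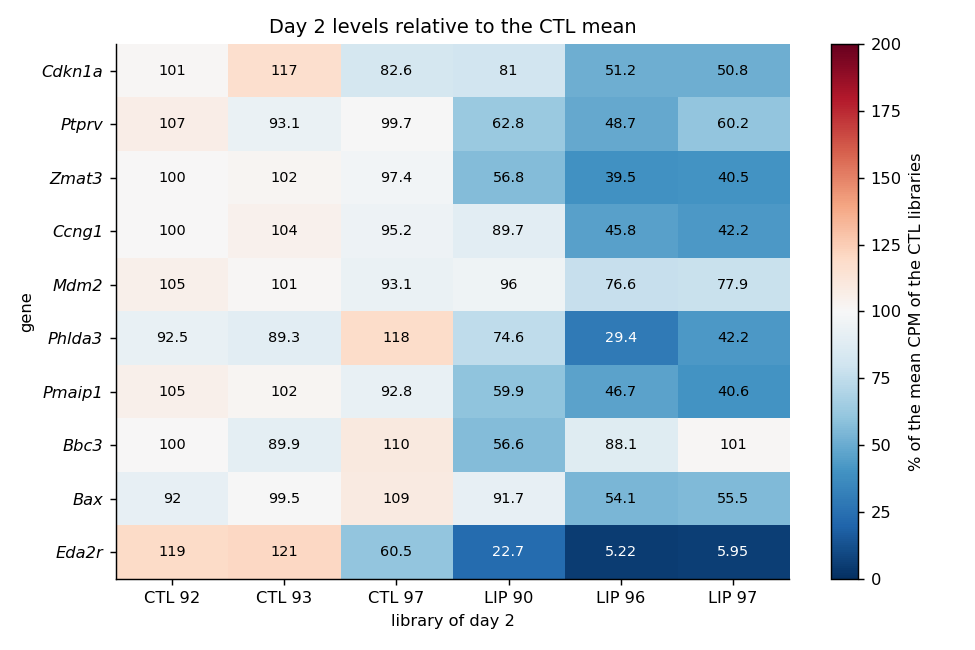
Level of each p53 target (rows) in each library of day 2 (columns) as a percentage of the mean CPM of the 3 CTL libraries, with the value in each cell. LIP 96 and LIP 97 are low for 9 genes, down to 5.22% for Eda2r, while Bbc3 stays at 88.1% and 101%. LIP 90 is lowest for Bbc3, at 56.6%, within the CTL range for Mdm2, at 96%, and between the groups for the other genes.

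Libraries with the same antibody in their label were also set against each other, although it is not known whether the labels mark a real difference in antibody. The median log2 difference over the 10 genes was -0.54 (range -2.39 to -0.0048) for LIP 90 over CTL 92. It was -1.16 (-4.53 to -0.029) for LIP 96 over CTL 93 and -1.07 (-3.35 to -0.13) for LIP 97 over CTL 97. Nearest to 0 were Bax in the first pair and Bbc3 in the others. As the 10 were chosen on these libraries, nothing is read from the direction. With the antibody as a term in the fit, added after seeing the data, the median over the 10 genes was -0.85. Over the 6 libraries of day 2, the log2 levels of 9 of the 10 genes moved together, all 36 pairs of genes without Bbc3 having a Pearson correlation above 0.8. The 9 pairs with Bbc3 lay between -0.123 and 0.423. These libraries differ by group, which enters each of the correlations, so they describe how alike the genes were and test nothing.

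The LIP effect was also compared between the days in the fit of all 12 libraries. The difference of the log2 fold changes, day 2 minus day 0, was negative for all 10 genes, as for 50.1% of all genes, with a median of -0.79. It was -1.39 for Ptprv (SE 0.24), -1.25 for Zmat3 (SE 0.19) and -1.12 for Pmaip1 (SE 0.34). The difference had no usable error for Eda2r, which had no counts on day 0, and the median without it was -0.68. These differences are a description, and no test of them is reported. Without LIP 90 of day 2 the median was -1.15, and it was -0.58 without CTL 89 of day 0 and -1.09 without CTL 94. Bbc3, at -0.23 with all libraries, was at 0.0064 without LIP 92 of day 0.

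A longer list of 52 other p53 targets, of which 46 were tested on day 2, leaned the same way. Their median log2 fold change of LIP over CTL was -0.37, against -0.01 over all genes, and 36 of the 46 were negative, where 50.8% of all genes were. None passed an adjusted p of 0.05 in edgeR, 20 were lower and 3 higher at an unadjusted p under 0.05, and DESeq2 called 9 lower and 0 higher. Over all genes these shares were 8.2% and 8.33% for the unadjusted p, and 1.42% and 2.04% for DESeq2. Groups did not overlap for 18 lower genes and 1 higher gene, where 10.1% and 11.5% of all genes did so. Without LIP 90, 20 of 47 were called lower and 3 higher, against 6.19% and 7.74% of all genes. This list too was drawn up with results of these libraries known.

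The 4 genes of this list with the largest differences were Ak1, Sulf2, Epha2 and Dcxr. Ak1, the cytosolic adenylate kinase, was at 13.1, 13 and 5.03 CPM in CTL and at 2.06, 0.568 and 1.08 CPM in LIP, a log2 fold change of -3.06 (SE 0.51, edgeR adjusted p = 0.101). Sulf2, which trims sulfate from heparan sulfate chains, was at 23, 22.5 and 20 CPM against 8.78, 1.99 and 3.37 CPM, a log2 fold change of -2.21 (SE 0.43, adjusted p = 0.118). The ephrin receptor Epha2 was at -1.99 (SE 0.42, adjusted p = 0.12) and the sugar reductase Dcxr at -1.78 (SE 0.33, adjusted p = 0.108). None of these 4 passed with all libraries. Without LIP 90 all 4 passed as lower in LIP, Epha2 at a log2 fold change of -1.91 that was no larger than before, with adjusted p = 0.00289 for Ak1, 8.04e-05 for Sulf2, 0.0315 for Epha2 and 0.000773 for Dcxr. In the opposite direction, and named after their values were seen, stood the cytokine Lif at 0.54, the stress protein Sesn2 at 0.71 and the ribonucleotide reductase subunit Rrm2b at 0.76, with adjusted p of 0.214, 0.224 and 0.197. Without LIP 90, edgeR called 3 genes higher in LIP, Sesn2 at a log2 fold change of 1.00, Rrm2b at 1.00 and Gadd45a, a DNA damage response gene, at 1.3 (adjusted p = 0.000752, 0.00694 and 0.0426).

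**Figure D5:**
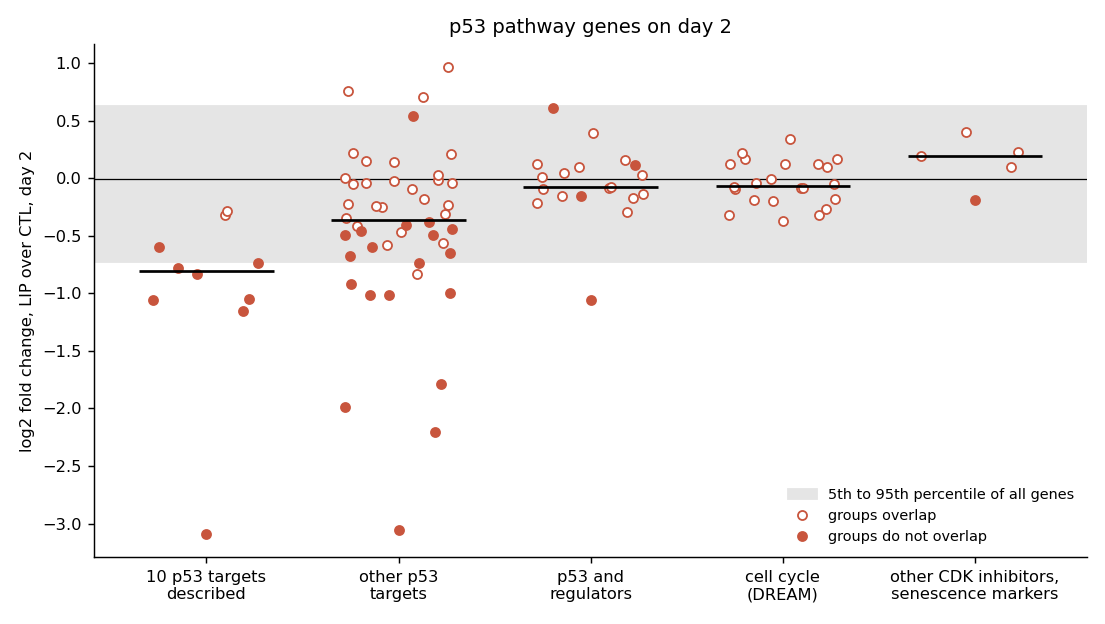
Log2 fold change of LIP over CTL on day 2 (vertical axis) of the tested genes of 5 lists, filled where the 3 libraries of the groups did not overlap; thick lines are list medians and the grey band spans the 5th to 95th percentile of all genes. The p53 targets lie mostly below 0, with medians of -0.80 and -0.37, while the cell cycle genes stay near 0, with a median of -0.06.

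On day 0, 36 of the other targets were tested and their median was 0.01. None passed an adjusted p of 0.05, 1 was higher and 3 were lower at an unadjusted p under 0.05, against 6.67% and 7.2% of all genes. Without CTL 94, edgeR called 2 lower, where it called 2.8% of all genes, against 0.37% with all libraries. These were Plk2, a polo-like kinase, at -1.99 (adjusted p = 0.000442) and Pcna, the sliding clamp of DNA replication, at -0.46 (adjusted p = 0.0252). With all libraries Plk2 was at -1.63 (SE 0.37, adjusted p = 0.0963), its levels being 8.99, 11.3 and 3.64 CPM in CTL and 2.7, 2.78 and 2.27 CPM in LIP. On stimulation, 35 of 46 other targets rose and 9 fell in CTL, and 34 rose and 8 fell in LIP, where of all genes 35.3% rose and 33.7% fell in CTL and 36.6% rose and 35.2% fell in LIP. Some of the 46, such as Ak1, were tested only through their values of day 2. With at least 10 counts in every library, 24 of 36 rose and 9 fell in CTL, where 35.3% and 36% of all genes did. In LIP 22 of 36 rose and 8 fell, where 36.3% and 36.9% did. Psrc1, a microtubule-associated protein, rose by 7.46 in CTL and 7.41 in LIP on the log2 scale, from 2 to 9 counts per library on day 0. Its CTL value was 8.36 without CTL 94 and 7.16 without CTL 89. Lif rose by 6.79 in CTL and 6.85 in LIP. For the difference between the days, none of the 46 passed in edgeR, where 0.0194% of all genes passed as lower. At an unadjusted p under 0.05, 11 were lower and 4 higher, against 7.28% and 8.65% of all genes. DESeq2 called 4 lower and 1 higher, against 0.963% and 2.4%.

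The groups overlapped for the RNA of p53 itself. Trp53 was at 149, 191 and 195 CPM in CTL and at 158, 152 and 173 CPM in LIP on day 2, a log2 fold change of -0.18 (SE 0.13, adjusted p = 0.551). It was at 0.03 on day 0 (SE 0.09, adjusted p = 0.893). On stimulation it rose by 0.77 in CTL (SE 0.12, adjusted p = 5.41e-05) and by 0.58 in LIP (SE 0.12, adjusted p = 0.000584). Mdm4, the partner of Mdm2 in holding p53 down, was at -0.14 on day 2 (SE 0.17, adjusted p = 0.725), and Cdkn2a, whose product Arf blocks Mdm2, stayed under 1 CPM in every library and was not tested. RNA levels do not report the amount or activity of the p53 protein, which was not measured in these libraries.

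Of 22 regulators of p53, 19 were tested on day 2 and none passed in edgeR, with 1 higher and 1 lower at an unadjusted p under 0.05, where 8.33% and 8.2% of all genes were. These were Chek1, the checkpoint kinase that signals stalled replication, at 0.61 (SE 0.17, adjusted p = 0.155), and Ppp1r13l, the p53 inhibitor iASPP, at -1.06 (SE 0.41, adjusted p = 0.256). Chek1 was at 41.2, 36.7 and 55.2 CPM in CTL and at 62.4, 75.7 and 68.7 CPM in LIP, and was called by DESeq2. Without LIP 90, edgeR called Chek1 and Rchy1 higher and Ppp1r13l and Usp7 lower, 2 each of 19, where 7.74% and 6.19% of all genes were called. On day 0, none of 17 passed, with 4 lower and 1 higher at an unadjusted p under 0.05, where 7.2% and 6.67% of all genes were, and DESeq2 called 0. Without CTL 94, edgeR called 3 lower, Trp53bp1 at -0.34, Crebbp at -0.36 and Ppp1r13b at -0.32 (adjusted p = 0.0213, 0.0229 and 0.0488), where 2.8% of all genes were called lower.

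Genes of the cell cycle that the DREAM complex silences downstream of p21 formed a further list of 22, all tested on day 2. Their median log2 fold change of LIP over CTL was -0.06, none passed in edgeR or DESeq2, and none had an unadjusted p under 0.05. Without LIP 90 the median was -0.27 and edgeR called 2 lower, Cdc20 and Ccne2, where 6.19% of all genes were, and none higher. The median turned to 0.0933 without LIP 96, 0.00937 without CTL 97 and 0.0083 without LIP 97. On stimulation all 22 rose in both groups, where 35.3% of all genes rose in CTL and 36.6% in LIP. Bub1 rose by 5.53 and Top2a by 5.50 in CTL, and by 5.53 and 5.11 in LIP. The CTL values were 6.35 and 6.15 without CTL 94, and 5.14 and 5.09 without CTL 89. On day 0, 21 were tested with a median of 0.23 and none passed in edgeR or DESeq2. At an unadjusted p under 0.05, 2 were lower and 0 higher, against 7.2% and 6.67% of all genes. The day 0 median turned to -0.13 without CTL 89. Without CTL 94 it was 0.93, and 11 were higher and 1 lower at an unadjusted p under 0.05, against 10.2% and 11% of all genes. Of these, edgeR called Mki67 and Top2a higher, at 0.96 and 1.14 (adjusted p = 0.0268 and 0.0272), where 1.79% of all genes were, and Cenpa lower, at -0.49 (adjusted p = 0.0173), where 2.8% were. The median difference between the days was -0.26, with 1 higher and 1 lower at an unadjusted p under 0.05, against 8.65% and 7.28% of all genes. It was -0.95 without CTL 94 and turned to 0.121 without CTL 89. None passed an adjusted p of 0.05 in edgeR in any of these fits. Of 8 inhibitors and markers of senescence, among them Cdkn2a, which is also on the list of regulators, 5 were tested on day 2 and none passed. Cdkn1b, which encodes the inhibitor p27, was at 0.40 (SE 0.16, adjusted p = 0.267), and Glb1, the lysosomal beta-galactosidase, was at -0.19 (SE 0.11, adjusted p = 0.429). On day 0 Glb1 was at 18.1, 17.2 and 22.6 CPM in LIP and 14, 15 and 14.5 CPM in CTL, a log2 fold change of 0.40 (SE 0.13, adjusted p = 0.216). Its difference between the days was -0.57 (SE 0.16, adjusted p = 0.117). Without LIP 90, edgeR called 1 of 6 higher, Cdkn1b at a log2 fold change of 0.56 (adjusted p = 0.0159), where 7.74% of all genes were called higher.

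The genes whose levels followed the 10 most closely were named by their Pearson correlation with the mean standardized log2 level, leaving out genes of the p53 lists, which is a description over libraries that share groups. Over the 12 libraries, Fgf2, a fibroblast growth factor, came first at 0.997, with 148, 146 and 125 CPM in CTL and 93.7, 69.9 and 70.9 CPM in LIP on day 2 and 15.5 to 18.8 CPM on day 0. Cnih3, Cobll1, Ulbp1 and Ptprs followed, between 0.991 and 0.994. Over the 6 libraries of day 2 these were Hook3 at 0.998, Gm42681, Gm38148, Papss2 and Mical2. Of the other p53 targets, Sulf2 was nearest on day 2, at 0.9933, above Papss2 at 0.9932 and Mical2 at 0.9926.

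Some records overlap others in the annotation, and the strand setting of the counting was not stated. Dino, a noncoding RNA read from the opposite strand at Cdkn1a, had 95, 77 and 67 counts in CTL and 73, 41 and 27 counts in LIP on day 2, against 1893 to 2540 and 987 to 2368 counts for Cdkn1a. Nudcd2, on the opposite strand to Ccng1, had 609, 489 and 633 counts in CTL and 887, 466 and 308 counts in LIP, with its highest count in LIP 90. The records Gm45808 and Gm10535, which overlap Bax and Ptprv, had at most 4 counts in a library.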

How the data were processed

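The 12 libraries of CD4+ T cell RNA, 3 for each of 4 groups, were assigned by their sample titles. The deposited values were expected counts per gene, which the authors estimated with RSEM 1.3.0 and Bowtie2 after read trimming and quality control (FastQC 0.11.9), from rRNA-depleted directional libraries, with the build GRCm39. The annotation release and counting strand are not given in the sources used here. The authors' tables for each day also held CPM, fold changes and p-values of their own, which were not used except for gene symbols. In these, 2 columns belong to libraries outside the labelled samples and were not used.

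Counts were rounded and analysed with edgeR 4.0.16 in R 4.3.3, with filterByExpr, TMM scaling and the quasi-likelihood test, adjusted by Benjamini-Hochberg over all genes tested. LIP and CTL were compared in the 6 libraries of each day. Rises with stimulation, and the difference between days, came from 1 fit of the 12 libraries, which also set the CPM levels. Alternatives were DESeq2 1.42.0, RLE and upper-quartile scaling, other filters and leaving out each library. The scripts were tested on simulated data. Positions and sequences came from GRCm39 with GENCODE annotation, and per-kilobase levels from the canonical transcript length. Named genes were all 10 targets, up to 4 genes per list and comparison by size of change, Trp53, Mdm4 and Cdkn2a, and the 5 most alike. The members and lists were chosen with earlier results of these data known. Limits by counting cover counting error only. One marker gene of the list is not reported here and was left out of its sum.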

Additional observations from a re-analysis of the deposited data

Results flagged for a closer look

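Ptprv stood out because every LIP library lay above every CTL library on day 0 and below on day 2. Of all genes, 10% were apart in that direction on day 0 and 10.1% on day 2, and the share that did both was not computed. Opposite signs alone were not particular to Ptprv. Of the 7 genes fitted on day 0, 4 were positive there, and all 10 were negative on day 2. The log2 fold change of LIP over CTL was 0.572 on day 0 and -0.831 on day 2. The difference between the days was -1.39 (SE 0.24) in the fit of all 12 libraries, which is given as a description. The gene was chosen on these libraries, so the fit is no test of it and no p-value is reported.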

How the results depend on the processing

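No paired analysis was possible because the groups compared share fewer than 2 replicate numbers. The antibody in the label was instead fitted as a term on day 2. The 10 targets kept a negative median on day 2 (-0.805) and for the difference between the days (-0.791) in every alternative run, with single libraries left out giving -1.09 to -0.67 and -1.15 to -0.58. On day 2 the number of genes called went from 0 to 485 with DESeq2, 775 with all 12 libraries in one fit, 1 with at least 10 counts in every library, 662 without a filter, and 0 to 2014 on leaving out each library. Other targets called lower on day 2 went from 0 to 9, 11 and 9 with DESeq2, one fit and no filter, and 0 to 20 on leaving out each library, and those called higher from 0 to 1 with one fit, 2 without a filter and 0 to 3. On day 0 the genes called went from 60 to 202 with DESeq2, 12 with one fit, 645 without a filter and 13 to 658 on leaving out each library, the highest without CTL 94, and other targets called lower from 0 to 2 without a filter and 0 to 2. For the difference between the days, genes called went from 8 to 520 with DESeq2, 815 without a filter and 1 to 1596, other targets higher from 0 to 1, 2 and 0 to 3, and lower from 0 to 4, 6 and 0 to 14. The targets' median rise in CTL (2.83) was 2.22 with at least 10 counts in every library, which drops the genes lowest on day 0, and 2.54 with upper-quartile scaling. In LIP (1.92) it was 1.501, 1.60 with that scaling, 1.58 with only the 6 LIP libraries and 1.671 to 2.098 on leaving out each library. With at least 10 counts in every library, other targets that rose went from 34 of 46 to 22 of 36 in LIP. In CTL they went from 35 of 46 to 24 of 36. Signs turned for Trp53 on day 0, to -0.0207 without CTL 88 and -0.03108 without LIP 94 (range to 0.1116), and for Mdm4 on day 2, to 0.02229 without LIP 90 (range from -0.261). The median of the cell cycle list turned to -0.13 on day 0 and to 0.121 for the difference between the days, both without CTL 89. On day 2 that median turned to 0.0933 without LIP 96. Among the 10 targets, the same happened on day 0 for the median, to -0.094 without CTL 89, and for Bax, Bbc3, Ccng1, Mdm2 and Pmaip1, and for the rise of Ptprv in LIP, to -0.276 with upper-quartile scaling, -0.046 with at least 10 counts in every library, -0.031 without LIP 92 of day 0 and -0.041 without LIP 90. Apart from fewer genes or samples by construction, the causes were not tested. With 3 libraries a group, the depth limits Cdkn1a, Phlda3 and Eda2r on day 0.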
